A study of Mus musculus with 8 samples.

Results

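The genes described here encode the proteins of the mitochondrial ribosome. They are the 78 protein-coding genes whose symbol is Mrpl or Mrps followed by a number, 49 of them Mrpl and 29 Mrps, out of 54532 genes in the deposited table. Another 5 genes of the same name pattern are pseudogenes and were not counted as members. Mrpl names were given to large subunit and Mrps names to small subunit proteins, but Mrps18a and Mrps30 are known as large subunit proteins and Mrps36 is no longer counted as a ribosomal protein, so that Mrpl and Mrps below are groups by name. The rule uses the symbols and no measured value, although this set of genes was taken up with earlier results of these data known.

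The mitochondrial ribosome, or mitoribosome, is the machine that translates the messenger RNAs of mitochondrial DNA, all of which code for subunits of the respiratory chain and ATP synthase. Its ribosomal RNAs are copied from mitochondrial DNA, whereas all of its proteins are encoded in the nucleus, made in the cytosol and imported. Part of the proteins have counterparts in bacteria and part are found only in mitochondria. Spermatocytes change their mitochondria from an orthodox to a condensed form as they pass through meiotic prophase, and the meiotic and haploid germ cells rely on respiration more than spermatogonia do.

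RNA was sequenced from spermatocytes of C57BL/6J mice, sorted by sedimentation through a bovine serum albumin gradient into pachytene (P) and leptotene/zygotene (L/Z) fractions, at postnatal day (PD) 24 and PD 52. MFN2 WT mice carried Mfn2 loxp/loxp without Cre. MFN2 cKO mice carried Mfn2 loxp/loxp with Stra8-Cre, in which a Stra8 promoter drives Cre in male germ cells from the spermatogonia on, so that somatic testis cells keep Mfn2. The study's methods state that controls were littermates. Each of the 8 combinations of stage, genotype and age was 1 library, and the number of mice behind a library was not given in the sources used here. The floxed alleles were thus shared by all 8 groups, although the study's methods also allow controls with 1 floxed allele.

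Levels are in FPKM, the unit of the deposited table, in which fragments are divided by gene length, so that genes can be compared with each other. Between libraries the deposited values were already scaled by median of ratios, as described under the processing. The libraries held 14340665 to 20379950 reads on genes, of which 31140 to 57757 (0.192 to 0.361%) lay on the members. Mfn2, which encodes mitofusin 2 of the outer mitochondrial membrane, was lower in MFN2 cKO in all 4 pairs, with 77.1 FPKM in WT against 39.6 in cKO for P PD 24, 82.2 against 34.3 for L/Z PD 24, 62.2 against 50.1 for P PD 52 and 97.5 against 47.9 for L/Z PD 52. These are values of the whole gene and do not single out the floxed exon. The stage labels were checked against marker genes. Of 14 leptotene and zygotene markers 6 or 7 were higher in L/Z than in P in each of the 4 pairs, among them Dmc1 (14.6 against 7.45 FPKM in MFN2 WT PD 24) and Prdm9 (4.80 against 2.21), while Sycp2 (43.4 against 97.8) and Sycp3 (38.4 against 69.3) were lower. Of 12 pachytene markers 5 to 7 were higher in P, with Piwil1 at 278 FPKM in P and 22.2 in L/Z of MFN2 WT PD 24. All 15 spermatid markers were higher in L/Z than in P in each of the 4 pairs. Their sum ranged from 308 FPKM in P MFN2 cKO PD 24 to 22278 in L/Z MFN2 cKO PD 52. In L/Z of PD 52 they summed to 12772 FPKM in MFN2 WT and 22278 in MFN2 cKO, beside 255 and 190 for the leptotene and zygotene markers. The leptotene, zygotene and pachytene markers thus gave both directions, whereas the spermatid markers gave a single direction. L/Z and P are used below as the names of the fractions. In such bulk samples fewer cells of a type and less RNA per cell cannot be told apart.

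All but 1 of the members were measured. A level above 1 FPKM in at least 1 of the 8 libraries was found for 77 members. The exception, Mrpl53, was listed at 0 in every library. Mrpl53 lies on chromosome 6 and 88.0% of its exonic bases are shared on the same strand with the gene model Gm42688. The part of this overlap in its value of 0 was not tested. The shares of exons given here are from GENCODE M21, in which 73 of the 78 members had the same coordinates (build GRCm38) as in the deposited table. Over 10% of exonic bases overlapped another gene on either strand for 18 members, and the library kit did not mark strand.

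The Mrpl genes had a higher median level than the Mrps genes. The median of the mean levels over the 8 libraries was 14.1 FPKM for Mrpl and 7.84 FPKM for Mrps, and the middle 50% of all 77 members lay between 5.45 and 19.4 FPKM. The highest was Mrpl54, a mitochondria-specific protein of the large subunit, with a mean of 94.6 FPKM, followed by Mrpl39 at 51.5 and Mrpl20 at 48.4. Among the Mrps genes Mrps28 (27.3), Mrps12 (20.6) and Mrps21 (20.1) were the highest. Mrps12 encodes a protein at the decoding centre. At the other end were Mrps35 at 1.19 FPKM, Mrpl23 at 1.50, Mrpl19 at 1.62, Mrps25 at 2.24, Mrpl33 at 2.26 and Mrps34 at 2.31. Of these, 36.0% of the exonic bases of Mrpl19, 69.8% of those of Mrps25 and 77.8% of those of Mrps34 lie in exons of other genes.

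The summed level of the members differed between libraries by up to 1.98 times and was highest in P MFN2 WT PD 52. It was 1160 FPKM in P MFN2 WT PD 24, 1051 in P MFN2 cKO PD 24, 903 in L/Z MFN2 WT PD 24 and 1232 in L/Z MFN2 cKO PD 24. At PD 52 it was 1791 in P MFN2 WT, 988 in P MFN2 cKO, 987 in L/Z MFN2 WT and 1047 in L/Z MFN2 cKO. P MFN2 WT PD 52 therefore stood apart from the other 7 libraries, which lay between 903 and 1232. It was the highest of the 8 libraries for 58 of 77 members (37 of 48 Mrpl and 21 of 29 Mrps), against 10.6% of the 21175 genes above 1 FPKM in at least 1 library. The sum of Mrpl over that of Mrps stayed between 3.13 and 3.62 in the 8 libraries.

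**Figure D1:**
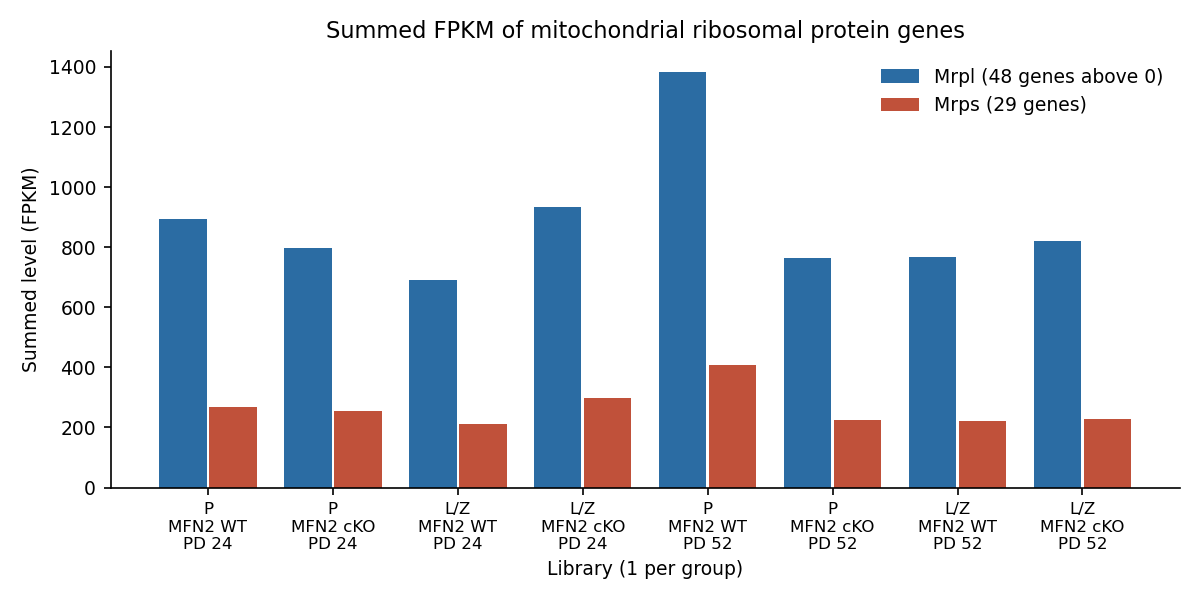
Summed level (FPKM, axis from 0) of the Mrpl genes (blue) and the Mrps genes (red) in each library, 1 library per group and so without error bars. The P MFN2 WT PD 52 bars are the tallest of both colours, at 1385 FPKM for Mrpl and 407 FPKM for Mrps.

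The question of the study was what loss of MFN2 does to spermatocytes, and each stage and age gives 1 comparison of MFN2 cKO with MFN2 WT. With 1 library in each group there is no replicate and no test within a pair. Changes are differences of log2(FPKM + 1), cKO minus WT, each with a 95% interval from the exact binomial distribution of the reads, which covers counting error only and not the spread between animals. Within a pair, genes above 1 FPKM in at least 1 of its libraries were used, and a change of at least 1 on this scale was counted as 2-fold.

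In the P fraction at PD 52 nearly all mitochondrial ribosomal protein genes were lower in MFN2 cKO. The value was lower for 76 of 77 members, against 54.4% of 17444 genes, and the counting interval lay below 0 for 74 and above 0 for none. The median change was -0.70, beside -0.05 over all genes, with -0.72 for the 48 Mrpl and -0.60 for the 29 Mrps genes. At least 2-fold lower values were found for 13 members (5.78% of all genes), 7 Mrpl and 6 Mrps, and 0 members were at least 2-fold higher (5.21% of all genes). P MFN2 WT PD 52, the library with the highest levels, is the WT side of this pair.

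Mrps24, a small subunit protein with a bacterial counterpart, had the lowest change in this pair. The gene lies on the minus strand of chromosome 11 (5703983 to 5715680, GRCm38). Its level was 13.9 FPKM in P MFN2 WT PD 52 and 3.99 FPKM in P MFN2 cKO PD 52, a change of -1.58 (95% counting interval -1.87 to -1.28, 327 and 85 reads). Mrpl2, a large subunit protein of the catalytic core, was at 44.0 and 16.7 FPKM, a change of -1.35 (-1.54 to -1.16). Mrpl52 was at 62.9 and 24.4 FPKM, a change of -1.33 (-1.50 to -1.17). Mrpl14 was at 8.80 and 3.05 FPKM, a change of -1.28 (-1.68 to -0.86), and Mrps21 was at 39.6 and 15.7 FPKM, a change of -1.28 (-1.53 to -1.04). The most abundant member, Mrpl54, was at 176 and 72.8 FPKM, a change of -1.26 (-1.37 to -1.15). Except for Mrpl14, the intervals of these genes lay below -1, so that the reads put them beyond 2-fold. The exons of Mrps24 and Mrpl14 overlap other genes over 15.4% and 11.2% of their bases.

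A few members were at nearly the same level in both libraries. Mrps18b was at 9.61 FPKM in WT and 10.2 in cKO, a change of 0.08 (-0.13 to 0.29). Mrps2, also of the small subunit, was at 6.24 and 6.16 FPKM, a change of -0.02 (-0.23 to 0.20). The third interval that held 0 was that of Mrps27, with a change of -0.21 (-0.48 to 0.06). Mrps2, Mrps18b and Mrpl15 were also the members with the narrowest range over the 8 libraries, at 0.29, 0.48 and 0.59 on the log2 scale. Mrpl15 was at 4.24 and 2.49 FPKM in this pair.

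In the L/Z fraction at PD 24 nearly all members were higher in MFN2 cKO. The value was higher for 76 of 77 members, against 57.0% of 17664 genes, with a median change of 0.42 beside 0.08 over all genes. The medians were 0.43 for Mrpl and 0.40 for Mrps. The counting interval lay above 0 for 72 members and below 0 for 1. Only 1 member, Mrps18c, was at least 2-fold higher (3.45% of all genes), and 0 members were at least 2-fold lower (7.03% of all genes). The shift was thus broad and smaller than 2-fold.

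Mrps18c, a small subunit member of a family of 3 related proteins, was at 4.18 FPKM in L/Z MFN2 WT PD 24 and 9.90 in L/Z MFN2 cKO PD 24, a change of 1.07 (0.75 to 1.39, 85 and 189 reads). Mrps24 was at 7.76 and 15.4 FPKM, a change of 0.90 (0.68 to 1.12). Mrpl52 was at 20.3 and 38.6 FPKM, a change of 0.90 (0.73 to 1.06), and Mrpl27, next to the catalytic site of the large subunit, was at 5.48 and 11.1 FPKM, a change of 0.90 (0.59 to 1.21). Mrps24 and Mrpl52 were thus among the largest changes in both this pair and the P PD 52 pair, with opposite signs. The exons of Mrps18c overlap the gene model Gm43511 on the same strand over 23.2% of their bases.

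The one gene that was lower was Mrps36, at 9.26 FPKM in WT and 6.19 in cKO, a change of -0.51 (-0.79 to -0.24). Mrps36 keeps a mitoribosome name but is known as a component of the 2-oxoglutarate dehydrogenase complex of the tricarboxylic acid cycle. It also had the lowest change of the P PD 24 pair, at 6.15 and 2.66 FPKM (change -0.97, -1.30 to -0.63), and was at 7.34 and 4.27 FPKM in the P PD 52 pair. In the L/Z PD 52 pair it was at 12.0 FPKM in WT and 14.2 in cKO. Mrps36 was therefore lower in cKO in 3 of 4 pairs, and its range over the 8 libraries was the widest of all members at 2.05 on the log2 scale. A pseudogene copy, Mrps36-ps1, is the main other place where pieces of its transcripts are found (17.3% of 50-base windows occur in other genes).

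The other pairs had members in both directions. In the P PD 24 pair 45 of 77 members were lower (62.1% of 16749 genes) and the median change was -0.04 beside -0.10 over all genes, but scaling to total reads in place of the authors' scaling gave 0.13 with 52 members higher. Here 0 members were at least 2-fold higher (1.79% of all genes) or lower (6.29%). Mrpl54 was at 99.9 FPKM in WT and 61.1 in cKO, a change of -0.70 (-0.82 to -0.59), and Mrpl34 at 24.1 and 15.9 FPKM, a change of -0.57 (-0.84 to -0.32). At the other end were Mrpl27 with a change of 0.53 (0.23 to 0.82) and Mrps18c with 0.45 (0.18 to 0.72). The counting interval held 0 for 39 of the 77 members.

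In the L/Z PD 52 pair 76 members passed the filter and 40 of them were higher (53.0% of 17860 genes). The median change was 0.01 beside 0.02 over all genes, and -0.07 with scaling to total reads. Again 0 members were at least 2-fold higher (4.83% of all genes) or lower (3.12%), and 36 intervals held 0. Mrpl14 was at 3.66 FPKM in WT and 2.16 in cKO, a change of -0.56 (-1.04 to -0.06), and Mrps24 at 4.65 and 3.03 FPKM, a change of -0.49 (-0.85 to -0.12). Mrpl27 was at 2.98 and 4.93 FPKM, a change of 0.57 (0.13 to 1.01), and was higher in cKO in all pairs but P PD 52.

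**Figure D2:**
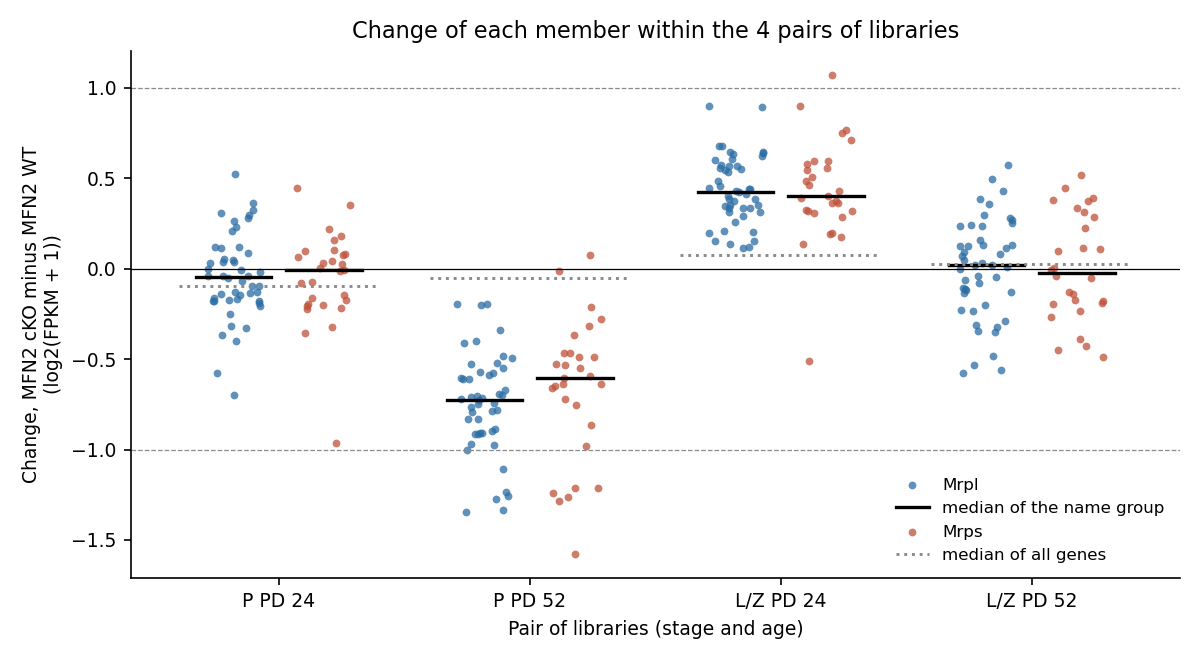
Change of each member from MFN2 WT to MFN2 cKO (difference of log2(FPKM + 1)) in the 4 pairs of libraries, with Mrpl in blue and Mrps in red. Solid bars are the medians of each name group, dotted bars the medians of all genes, and dashed lines mark 2-fold. The points lie below 0 for 76 of 77 members in P PD 52 and above 0 for 76 of 77 in L/Z PD 24, and on both sides of 0 in the other pairs, where the sign of the median depends on the scaling.

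**Figure D3:**
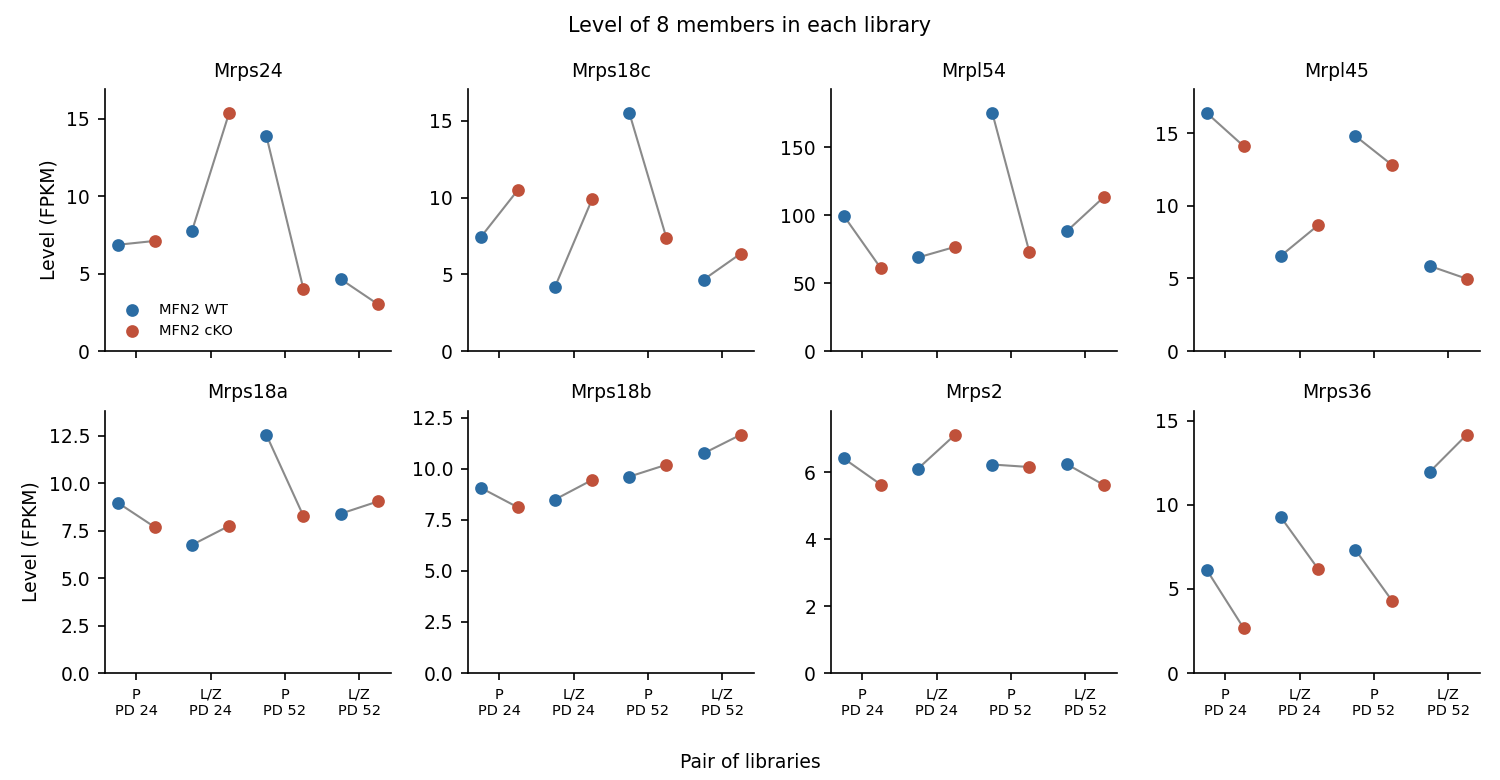
Level (FPKM, axis from 0) of 8 members in each library, MFN2 WT in blue and MFN2 cKO in red, with a line joining the 2 libraries of a pair. Mrps18c and Mrpl54 are highest in P MFN2 WT PD 52, Mrps24 is high there and in L/Z MFN2 cKO PD 24, Mrps18b and Mrps2 stay nearly level, Mrpl45 is higher in P than in L/Z, and Mrps36 is higher in L/Z.

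The 3 related proteins of the Mrps18 family did not change alike. Mrps18a, which despite its name sits in the large subunit, was at 12.6 FPKM in P MFN2 WT PD 52 and 8.27 in P MFN2 cKO PD 52, and between 6.76 and 9.05 in the 6 other libraries. Mrps18b stayed between 8.11 and 11.7 FPKM in all 8 libraries. Mrps18c ranged from 4.18 to 15.5 FPKM. The exons of Mrps18b overlap the antisense gene model Gm16279 over 30.5% of their bases. Mrps30, another large subunit protein with a small subunit name, was at 5.69 and 3.64 FPKM in the P PD 52 pair and 2.64 and 4.52 FPKM in the L/Z PD 24 pair.

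Groups of members by role had medians on the same side of 0 within these pairs. In the P PD 52 pair the median change was -0.72 for the 30 large subunit proteins with a bacterial counterpart and -0.72 for the 19 measured mitochondria-specific ones. It was -0.81 for the 16 small subunit proteins with a bacterial counterpart, of which 6 were at least 2-fold lower, and -0.49 for the 9 mitochondria-specific ones, of which 0 were. In the L/Z PD 24 pair the same groups had medians of 0.44, 0.39, 0.46 and 0.40. The stalk of the large subunit, where translation factors dock, holds Mrpl10, Mrpl11 and Mrpl12, at 19.5 and 12.4, 31.3 and 17.7, and 37.8 and 20.0 FPKM in WT and cKO of the P PD 52 pair. Mrpl58, a peptidyl-tRNA hydrolase built into the large subunit, was at 4.41 and 1.51 FPKM there. Mrps16 was at 10.4 and 3.91 FPKM, and Mrps22 at 13.3 and 9.18 FPKM.

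The other genes of mitochondrial translation were set beside the members. In the P PD 52 pair the median change was -0.89 for 5 mitoribosome proteins with other symbols (4 lower), -0.40 for 23 assembly factors (18 lower), -0.26 for 15 mitochondrial aminoacyl-tRNA synthetases (12 lower) and -0.08 for 15 translation factors (12 lower). In the L/Z PD 24 pair the medians were 0.30 (5 higher), 0.28 (19 higher), 0.27 (14 higher) and 0.24 (14 higher). The ribosomal RNAs of the mitochondrion gave values in both directions in P PD 52, where mt-Rnr1 was at 198 FPKM in WT and 176 in cKO and mt-Rnr2 at 116 and 198 FPKM. Cytosolic ribosomal protein genes, 83 of 90 measured in P PD 52, had a median change of -1.30 with 80 lower and 65 at least 2-fold lower. In the L/Z PD 24 pair their median was 0.73 with 84 of 85 higher. The difference between these lists and the members was not tested.

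The members were short genes, with a median length of 2214 bases (607 to 8631), and over protein-coding genes the change moved with gene length. Spearman's rho of change and length was 0.37 over 12396 protein-coding genes in the P PD 52 pair, -0.29 in both L/Z pairs and 0.07 in the P PD 24 pair, with 0.50, -0.12 (L/Z PD 24), -0.01 (L/Z PD 52) and 0.18 over the members. These are correlations across genes of the same libraries. In P PD 52 members under 1500 bases had a median of -0.98 beside -0.49 for 1456 other protein-coding genes of that length. Members of 1500 to under 3000 bases had -0.61 beside -0.26, and members of 3000 bases or more had -0.59 beside 0.00. In L/Z PD 24 the medians were 0.57 beside 0.29, 0.40 beside 0.25 and 0.40 beside 0.05. The medians of the members were farther from 0 than those of the other protein-coding genes in each class of both pairs. Lengths were not matched within a class, and the class of 3000 bases or more has no upper bound. The part of gene length in these changes was not tested.

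**Figure D4:**
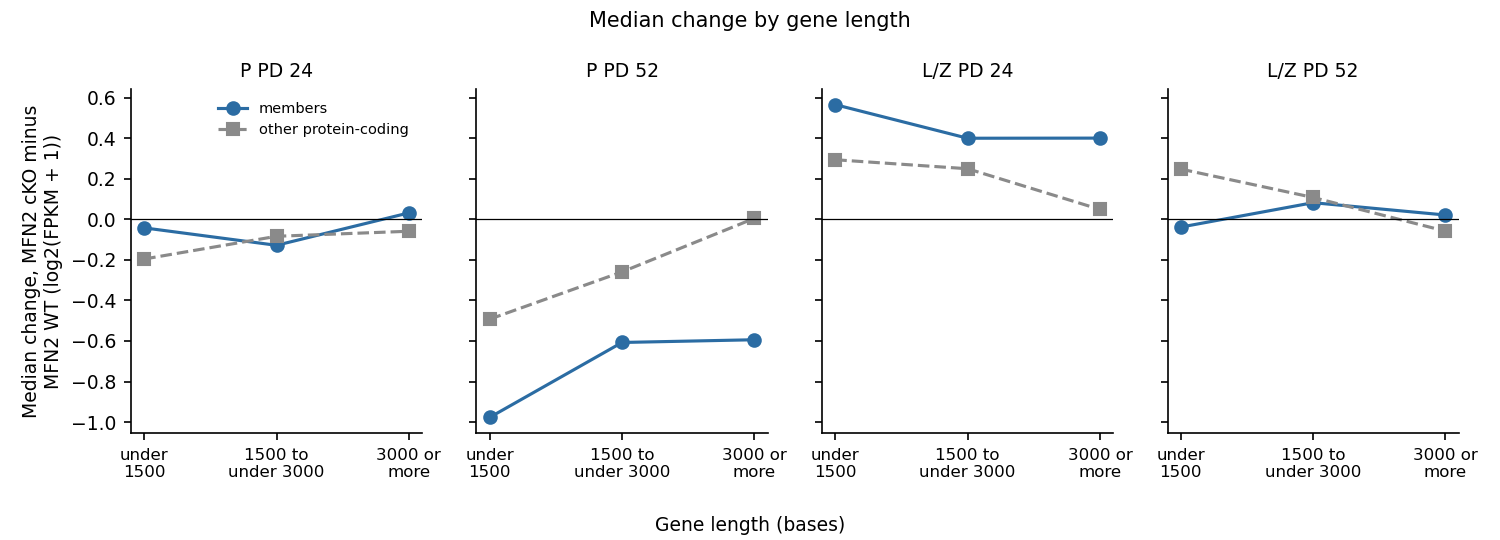
Median change from MFN2 WT to MFN2 cKO (difference of log2(FPKM + 1)) by gene length for the members (blue) and other protein-coding genes (grey) in the 4 pairs. In P PD 52 the members lie below the other genes in all 3 length classes, and in L/Z PD 24 they lie above them.

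Marker genes of other cells also differed within these pairs. In the P PD 52 pair the summed level of 9 Sertoli markers was 577 FPKM in WT and 282 in cKO (9 lower), that of 7 Leydig markers 255 and 641 (7 higher), that of 7 macrophage markers 4.86 and 20.1 (7 higher), that of 15 spermatid markers 5657 and 2874 (12 lower), that of 14 leptotene and zygotene markers 312 and 275 (13 lower) and that of 10 spermatogonia markers 108 and 56.3 (6 lower). In the L/Z PD 24 pair the spermatid markers were at 3153 and 745 FPKM (15 lower) and the Sertoli markers at 211 and 173 (8 lower). The Leydig markers were at 36.4 and 206 there (7 higher) and the 7 macrophage markers at 39.0 and 124 (7 higher). The spermatogonia markers were at 120 and 175 (10 higher) and the leptotene and zygotene markers at 270 and 300 (8 lower). The 12 pachytene markers were at 4564 and 3877 FPKM in P PD 52 (6 lower) and 2735 and 2856 in L/Z PD 24 (7 lower). The 5 myoid markers were at 10.2 and 5.11 FPKM in P PD 52 (5 lower) and 115 and 160 in L/Z PD 24 (3 higher). Every one of these markers was above 0 in at least 1 library. Their part in the change of the members was not tested.

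Across the 77 members the changes in the P PD 52 and L/Z PD 24 pairs, which share no library, had a Spearman's rho of -0.33 and a Pearson's r of -0.36. Over 11890 other protein-coding genes rho was -0.21. The changes in P PD 24 and L/Z PD 24 had a rho of 0.37 and an r of 0.53 (rho 0.54 over 12006 other protein-coding genes). The points share libraries, gene length and base composition, and no p is given.

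The members with the largest changes are shown by their promoters, since genes that move together can be set beside what their start regions hold. RefSeq promoters (build GRCm38.p6, 250 bases before to 50 after the start) were found for 69 of the 78 members. The 4 below are Mrps24, with the largest change in P PD 52, Mrps18c, with the largest in L/Z PD 24, Mrps18b, which was at nearly the same level in both P PD 52 libraries, and Mrps36, the member that was lower in L/Z PD 24. Capitals mark matches on either strand to 5 short motifs, which are GCGCATGC (core of NRF1 sites), CCGGAAG (core of ETS sites), AAGATGGCG (core of YY1 sites), GGGCGG (GC box) and TGACGTCA (CRE). No motif holds another.
Mrps24 (chr11:5707652-5707951, minus strand): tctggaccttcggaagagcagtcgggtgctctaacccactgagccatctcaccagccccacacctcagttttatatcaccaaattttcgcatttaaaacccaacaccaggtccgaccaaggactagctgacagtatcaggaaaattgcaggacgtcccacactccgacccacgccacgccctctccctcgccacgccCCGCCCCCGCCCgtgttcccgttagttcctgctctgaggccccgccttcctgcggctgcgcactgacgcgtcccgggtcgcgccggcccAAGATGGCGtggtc
Mrps18c (chr5:100798509-100798808, plus strand): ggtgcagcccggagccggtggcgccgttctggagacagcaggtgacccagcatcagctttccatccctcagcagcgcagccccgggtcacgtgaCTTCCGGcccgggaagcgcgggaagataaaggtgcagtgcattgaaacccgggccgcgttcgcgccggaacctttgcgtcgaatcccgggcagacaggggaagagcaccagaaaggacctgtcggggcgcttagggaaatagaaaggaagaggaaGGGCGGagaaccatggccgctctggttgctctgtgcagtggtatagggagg
Mrps18b (chr17:35916391-35916690, minus strand): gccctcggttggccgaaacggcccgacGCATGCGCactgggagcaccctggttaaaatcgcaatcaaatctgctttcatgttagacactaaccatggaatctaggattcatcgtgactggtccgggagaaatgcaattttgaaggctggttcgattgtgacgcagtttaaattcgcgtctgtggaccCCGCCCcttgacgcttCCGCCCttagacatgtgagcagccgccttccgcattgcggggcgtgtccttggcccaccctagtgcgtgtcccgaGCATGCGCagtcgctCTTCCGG
Mrps36 (chr13:100744610-100744909, minus strand): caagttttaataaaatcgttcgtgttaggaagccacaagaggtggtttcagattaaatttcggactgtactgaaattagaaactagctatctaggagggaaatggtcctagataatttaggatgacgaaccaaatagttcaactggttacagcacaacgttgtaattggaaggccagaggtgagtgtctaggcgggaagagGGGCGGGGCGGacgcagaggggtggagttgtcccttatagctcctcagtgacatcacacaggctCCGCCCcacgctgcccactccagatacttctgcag

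The Mrps24 promoter held the YY1 core and the GC box. Mrps18c held the ETS core and the GC box, Mrps18b held the NRF1 and ETS cores and the GC box, and Mrps36 held the GC box alone. Over the 69 members the ETS core was found in 37.7%, against 9.93% of 27025 genes with a promoter and 13.3% of the 16497 protein-coding ones. The NRF1 core was found in 11.6% against 3.05% and 4.10%, and the YY1 core in 11.6% against 1.64% and 2.25%. The GC box was in 49.3% (38.2% and 51.0%) and the CRE in 2.90% (2.03% and 2.64%). A match describes letters and not binding, and no factor was measured here. In addition, 18 members start within 1000 bases of a protein-coding gene on the other strand, such as Mrps18c, 29 bases from Helq, Mrpl54, 26 bases from Apba3, and Mrps12, 172 bases from Sars2.

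To ask whether MFN2 cKO and MFN2 WT differed in common, all 4 pairs entered a limma fit across 21175 genes, with the pair as a block. The test called 0 of 77 members, while 28 genes (0.132%) were higher and 1 (0.00472%) lower at a Benjamini-Hochberg adjusted p under 0.05 over all genes. At an unadjusted p under 0.05 the members also numbered 0. The median change of the members was -0.07 beside -0.04 over all genes, and it was 0.11 without the P PD 52 pair and -0.24 without the L/Z PD 24 pair. The lowest changes, none of them called, were those of Mrps36 (-0.48 ± 0.22 SE, limma adjusted p = 0.75), Mrpl34 (-0.43 ± 0.20, adjusted p = 0.75) and Mrpl14 (-0.42 ± 0.26, adjusted p = 0.82). The highest were those of Mrpl27 (0.29 ± 0.29, adjusted p = 0.90), Mrps18c (0.23 ± 0.32, adjusted p = 0.95) and Mrps33 (0.19 ± 0.22, adjusted p = 0.93). Mfn2 itself had a change of -0.87 ± 0.19 and a limma adjusted p of 0.27 in this fit, so that the deleted gene was not called either.

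Whether the genotype effect differed between ages or stages was tested as an interaction in limma. Between ages, PD 52 minus PD 24, the median difference of the members was -0.53 beside 0.02 over all genes, and 0 members were called (0.0142% of all genes). An unadjusted p under 0.05 was found for 13 members (16.9%, against 12.5% of all genes). With scaling to total reads it was found for 25 (32.5%, against 14.2% of all genes). The largest difference was that of Mrps24, at -1.51 with a limma adjusted p of 0.29. Between stages, P minus L/Z, the median was -0.58 beside -0.07, and 0 members were called (0.0% of all genes). The difference was below 0 for 77 of 77 members (75 with scaling to total reads). An unadjusted p under 0.05 was found for 7 members (9.09%, against 4.14% of all genes). With scaling to total reads it was found for 1 (1.30%, against 3.29% of all genes), so that the share of members fell below the background. Each of these tests sets 2 pairs against 2 others, and the difference between the P PD 52 and L/Z PD 24 pairs alone was not tested.

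Between the meiotic fractions, 7 members were called in the common effect of stage (P minus L/Z over 4 pairs, limma, adjusted p under 0.05). Higher in P were 6 members, against 12.4% of all genes, and lower was 1, against 16.0% of all genes. Both shares of members were below the background. At an unadjusted p under 0.05 the members numbered 17 (22.1%, against 41.8% of all genes). The median change was 0.24 beside -0.04 over all genes, and the change was above 0 for 63 of 77 members. The median of the members was 0.06 without the MFN2 WT PD 52 pair (44 above 0) and 0.43 without the MFN2 cKO PD 24 pair (68 above 0). By pair the median was 0.27 in MFN2 WT PD 24, 0.77 in MFN2 WT PD 52, -0.20 in MFN2 cKO PD 24 and 0.12 in MFN2 cKO PD 52, so that members were mostly higher in L/Z in the cKO mice of PD 24. Markers of other cells moved with the fraction. The 9 Sertoli markers summed to 282 to 670 FPKM in P and 21.8 to 211 in L/Z and were all higher in P in each pair, while the 15 spermatid and 7 macrophage markers were all lower in P in each pair. Their part in the stage changes of the members was not tested. These pairs reuse the libraries of the genotype comparisons. The test of this effect between ages called 0 members (0.0% of all genes), with a median difference of 0.35 beside -0.02. At an unadjusted limma p under 0.05 the members numbered 3 (3.90%, against 9.36% of all genes). With scaling to total reads they numbered 17 (22.1%, against 12.6% of all genes). Whether the share of members lay below or above the background thus depended on the scaling.

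Mrpl45, which holds the mitoribosome at the inner membrane near the end of the exit tunnel, had the largest change. The gene lies on the plus strand of chromosome 11 (97315716 to 97329920, GRCm38). It was at 16.4 and 14.1 FPKM in P MFN2 WT and cKO of PD 24, 14.8 and 12.8 in P of PD 52, 6.56 and 8.66 in L/Z of PD 24 and 5.87 and 4.98 in L/Z of PD 52. All 4 P libraries were above all 4 L/Z libraries, and the common change was 1.06 ± 0.16 (SE, limma adjusted p = 0.0050). Mrpl24, also near the tunnel exit, was at 34.5 to 53.2 FPKM in P and 18.4 to 23.8 in L/Z, without overlap of the fractions (0.93 ± 0.18, limma adjusted p = 0.0099). Of the exonic bases of Mrpl24, 26.3% lie in the antisense gene Rrnad1. Mrpl44, whose fold is that of an RNase III, was at 7.21 to 10.8 FPKM in P and 3.54 to 8.81 in L/Z, with overlap (0.74 ± 0.22, limma adjusted p = 0.042). These 3 are among the 8 genes listed for the tunnel exit side, whose median was 0.06 and of which Mrpl47 had a change of -0.40.

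The other members higher in P were Mrpl37 (19.2 to 27.7 FPKM in P, 12.5 to 19.6 in L/Z, change 0.59 ± 0.15, limma adjusted p = 0.027), Mrpl3 (4.42 to 7.03 and 2.81 to 5.70 FPKM, 0.56 ± 0.15, adjusted p = 0.033) and Mrps27, a pentatricopeptide repeat protein (4.81 to 8.24 and 2.26 to 7.30 FPKM, 0.53 ± 0.16, adjusted p = 0.044). The fractions overlapped for each of them. The call of Mrps27 was lost with further median-of-ratios scaling, and those of Mrps27 and Mrpl44 with scaling to total reads. With additive terms in place of the pair block the calls of Mrps27, Mrpl44 and Mrpl3 were lost. With no filter only Mrpl24, Mrpl37 and Mrpl45 stayed called, and with no pair block only Mrpl24 and Mrpl45. Mrps36 was the 1 member lower in P, at 2.66 to 7.34 FPKM against 6.19 to 14.2 in L/Z (-0.91 ± 0.19, limma adjusted p = 0.014). Not called were Mrps18c (0.63 ± 0.25, adjusted p = 0.10), Mrpl18 (-0.44 ± 0.20, adjusted p = 0.14) and Mrps12 (-0.42 ± 0.22, adjusted p = 0.19). Limma called 0 genes of any kind when the MFN2 WT PD 24 or the MFN2 cKO PD 52 pair was left out, with 6466 and 6960 genes at an unadjusted p under 0.05. Without the MFN2 cKO PD 24 pair 4 members were called higher (Mrpl24, Mrpl37, Mrpl44 and Mrpl45) and 0 lower, against 1318 and 1891 of 21175 genes. Without the MFN2 WT PD 52 pair 2 members were called higher (Mrpl24 and Mrpl45), against 2360 of 21175 genes. In that fit 3 members were called lower (Mrps36, Mrps12 and Mrpl32, the last chosen after its values were seen), against 2640 genes.

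**Figure D5:**
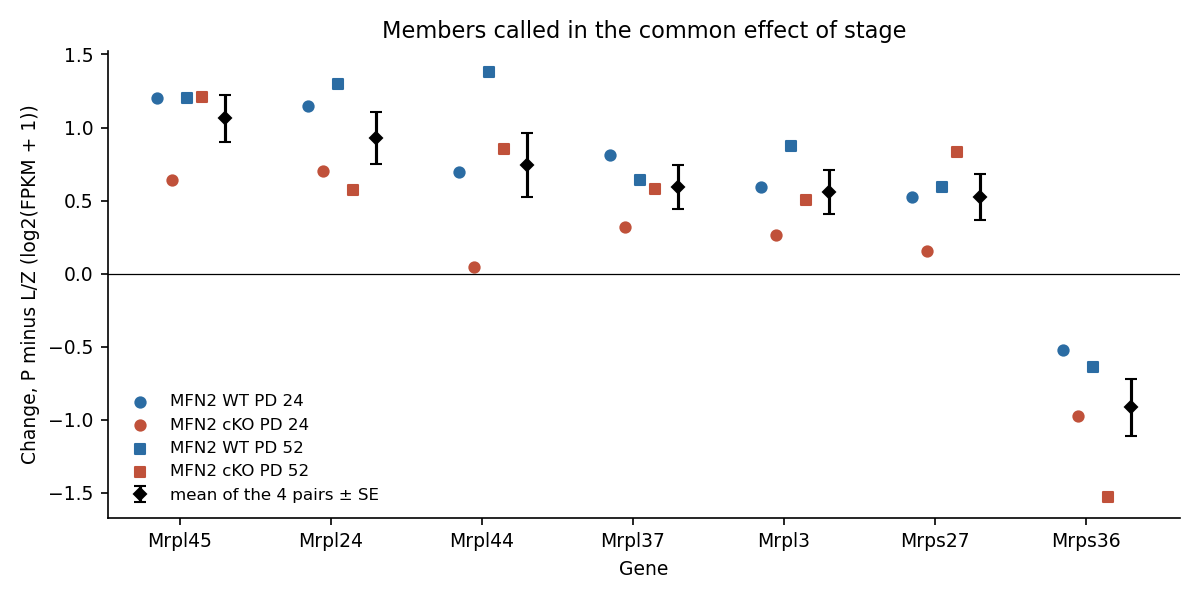
Change from L/Z to P (difference of log2(FPKM + 1)) of the 7 members called in the common effect of stage. Small points are the 4 pairs (circles PD 24, squares PD 52, blue MFN2 WT, red MFN2 cKO), and diamonds with bars are the mean of the pairs and its SE from limma. For the 6 genes on the left the 4 points lie above 0, and for Mrps36 they lie below 0.

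Other genes of mitochondrial translation were called in both directions in the common effect of stage. Over all genes 12.4% were called higher in P and 16.0% lower. Of 15 translation factors 4 were higher in P and 1 lower, with the highest change for Mtif2, the initiation factor (0.89, limma adjusted p = 0.0077), and the lowest for Rmnd1 (-1.03, adjusted p = 0.0048). Of 23 assembly factors 5 were higher and 2 lower, led by Ddx28 (1.31, limma adjusted p = 0.0042) and Nsun4 (-1.23, adjusted p = 0.011). Of 15 aminoacyl-tRNA synthetases 3 were higher and 1 lower. Of the 85 cytosolic ribosomal protein genes tested 1 was higher and 0 lower, with a median of -0.02.

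Between ages (PD 52 minus PD 24 over 4 pairs) the limma test called 0 of 77 members, against 11.9% of all genes called higher and 5.41% called lower at PD 52 (2523 and 1146 genes, but 1726 and 1509 with scaling to total reads), and 10 members had an unadjusted p under 0.05 (13.0%, against 37.6% of all genes), or 5 with scaling to total reads. The median change was -0.04 beside 0.00 over all genes, with 32 members above 0. The median of the members was -0.20 without the MFN2 WT P pair (23 above 0) and 0.09 without the MFN2 cKO L/Z pair (53 above 0). With scaling to total reads it was -0.20 (22 above 0) beside -0.15 over all genes. By pair the median was 0.47 in P MFN2 WT, -0.17 in P MFN2 cKO, 0.02 in L/Z MFN2 WT and -0.43 in L/Z MFN2 cKO. The highest changes, none of them called, were those of Mrps36 (0.54 ± 0.18, limma adjusted p = 0.089), Mrpl47 (0.52 ± 0.18, adjusted p = 0.094) and Mrpl51 (0.51 ± 0.15, adjusted p = 0.065). Mrpl51 was at 21.9 to 27.9 FPKM at PD 24 and 27.8 to 46.5 at PD 52. The lowest were those of Mrps27 (-0.66 ± 0.21, limma adjusted p = 0.078), Mrps24 (-0.61 ± 0.44, adjusted p = 0.34) and Mrps5 (-0.57 ± 0.20, adjusted p = 0.096). For Mrps24 the levels of the 2 ages ranged from 6.86 to 15.4 FPKM at PD 24 and from 3.03 to 13.9 at PD 52 and overlapped.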

How the data were processed

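Poly(A) or other selection of the RNA was not given in the sources used here. Per the labels, libraries were made from total RNA of spermatocytes with the NEBNext Ultra RNA kit, which does not mark strand. They were sequenced as paired ends on an Illumina HiSeq, and the authors deposited 1 table of FPKM values per gene, with gene length and coordinates. The submitters' processing notes name CASAVA 1.4, Bowtie 0.12.2, mm8 and mm9, whereas the coordinates in the table are those of GRCm38.

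In the deposited values FPKM times gene length was a whole multiple of 1 step in each library (100.0% of values above 0, tolerance 0.001 of a read), which gave the reads behind each value. Median-of-ratios factors of the FPKM over genes above 0 in all libraries were 1.0 in each library, so that the table was already scaled in that way.

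Samples were grouped by the labels, 1 library per group. The members and gene lists were chosen with earlier results of these data known. Common effects and differences of effects were fitted with limma 3.58.1 (R 4.3.3, lmFit and eBayes with trend) on log2(FPKM + 1) over genes above 1 FPKM in at least 1 library, with the pair as a block, and p-values were adjusted by Benjamini-Hochberg over all genes tested. A fold change on this scale is smaller than the ratio of FPKM for low genes. p-values measure the spread between pairs of libraries that also differ in the other factors. Members were named by a fixed rule, namely the 3 highest and lowest of each subunit, the called members and 3 highest and 3 lowest changes of each common effect, up to 5 at least 2-fold changes per pair, the 3 widest and narrowest ranges, and a list of members with known roles. Genes that were named outside the rule are Mrpl32 and those shown for neighbours or overlaps. Scripts were tested on simulated data. The alternatives were another pseudocount, no filter, other scalings, protein-coding genes only, other models and leaving out each pair. Python 3.11.15 with scipy 1.17.1 was used for intervals.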

Additional observations from a re-analysis of the deposited data

Results flagged for a closer look

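The median change of the members lay on opposite sides of 0 in some pairs of libraries of the same contrast, with at least 3 in 4 members on that side of 0 in each. For MFN2 cKO against MFN2 WT the median was 0.42 in L/Z PD 24 (76 members higher) and -0.70 in P PD 52 (76 lower), a difference of 1.12. For P against L/Z it was 0.27 in MFN2 WT PD 24 (62 higher) and -0.20 in MFN2 cKO PD 24 (59 lower), a difference of 0.47, and 0.77 in MFN2 WT PD 52 (74 higher), a difference of 0.97 from MFN2 cKO PD 24. For PD 52 against PD 24 it was 0.47 in P MFN2 WT (72 higher) and -0.43 in L/Z MFN2 cKO (59 lower), a difference of 0.91. These differences between 1 pair and another were not tested, because each group is 1 library. The stage and age contrasts reuse the libraries of the genotype contrast, and P MFN2 WT PD 52, L/Z MFN2 cKO PD 24 or both enter each of the differences.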

How the results depend on the processing

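Each group is 1 library, so that depth limits only the counting intervals. The pair of libraries was the block in the fits of the common effects, and the values with no pair block are given here. In the common effect of genotype and the 3 differences of effects, 0 members were called under every alternative run. Mrpl45 and Mrpl24 were called higher in P in every alternative but the leaving out of the MFN2 WT PD 24 or MFN2 cKO PD 52 pair. Where a value moved below, the cause was not tested. The alternatives added after the data were seen are the scaling to total reads and the members without overlapping exons.

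For genotype, all genes called higher and lower numbered 7 and 0 with a pseudocount of 0.1, 0 and 0 with no filter, 69 and 2 with protein-coding genes only, 3 and 0 with additive terms, 3 and 0 with no pair block, and 0 and 0 without any 1 pair. For stage, no filter gave 3 members higher and 0 lower (all genes 1331 and 1679), and no pair block gave 2 and 0 (868 and 277). Without 1 pair the members higher ranged from 0 to 4 and lower from 0 to 3, and all genes higher from 0 to 2360 and lower from 0 to 2640. For age, no filter gave 632 and 159 genes and no pair block 1 and 0. Protein-coding genes only gave 1 member higher (Mrpl54), and additive terms 1 lower (Mrps27). Without 1 pair, members lower ranged from 0 to 1 (Mrpl27, without the MFN2 WT P pair), and all genes higher from 0 to 2629 and lower from 0 to 1308. For the genotype effect between ages, all genes called numbered 72 and 2 with a pseudocount of 0.1, 32 and 2 with further median-of-ratios scaling, and 0 higher with no filter or scaling to total reads.

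With a pseudocount of 0.1, genes at least 2-fold higher and lower in cKO numbered 667 and 1663 in P PD 24 (1 member lower), 1694 and 1670 in P PD 52 (18 members lower, against 13), 1257 and 1868 in L/Z PD 24 (2 members higher) and 1498 and 1185 in L/Z PD 52. Scaling to total reads turned the median of the members in P PD 24 from -0.04 to 0.13 (52 members above 0), that of all genes being 0.06. It put the median of all genes at -0.15 for age and at 0.19 for the stage effect between ages. In P PD 52 the members above 0 numbered 2 with further median-of-ratios scaling and 0 without overlapping exons, which also left 0 members at least 2-fold higher in L/Z PD 24.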
